A study of Mus musculus with 35 samples.

Results

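The miR-148 and miR-152 family was represented by 3 of the 376 mouse miRNAs on the PCR array, mmu-miR-148a, mmu-miR-148b and mmu-miR-152. They were taken by name from the list of assays, with star forms left out. The names of the wells came from the layout in the study's supplementary table, since the labels and the study's methods name different versions of the array. The mice were female Big Blue mice, 6 months old when treated, which carry a bacterial reporter transgene for scoring mutations. Each mouse received 1 intraperitoneal injection, either ENU (N-ethyl-N-nitrosourea, a DNA-ethylating carcinogen that needs no metabolic activation) at 120 mg per kg body weight or DMSO, its vehicle. After ENU, livers were taken on post-treatment days (PTDs), from 5 mice at each of PTDs 1, 3, 7 and 15 and from 4 at PTD 30 and 4 at PTD 120. The 7 vehicle controls, labelled as killed on day 1 (3 mice) or day 30 (4 mice), formed 1 pooled control group.

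miRNAs pair with sites in messenger RNAs through a short seed near their 5′ end and lower the output of those messages. Members of the miR-148 and miR-152 family share a seed and are best known for repressing Dnmt1, the enzyme that copies DNA methylation onto newly made strands. In liver, miR-148a is abundant, has been tied to hepatocyte differentiation, and lowers the LDL receptor that takes cholesterol out of blood.

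The mature sequences are shown because the shared seed defines the family and the few other bases are all that separates one assay's target from another. They were taken from RefSeq (mouse build GRCm38.p6), which held all 3 members. Capitals mark the seed, bases 2 to 8 counted from the 5′ end.
mmu-miR-148a-3p: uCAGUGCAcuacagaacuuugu
mmu-miR-148b-3p: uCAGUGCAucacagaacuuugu
mmu-miR-152-3p: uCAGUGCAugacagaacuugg

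The array's assay names gave no arm, and the 3p arms were matched to them. The seed CAGUGCA occurred in 3 of the 1738 mature mouse miRNAs of the table, the members themselves. From miR-148a to miR-148b the substitutions were C9U and U10C, so that 20 of 22 bases were the same. miR-152 differed from miR-148a by C9U, U10G and U20G over the 21 bases both hold. Between miR-148b and miR-152 the changes were C10G and U20G. Whether one assay also amplified another member's RNA was not tested.

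The 3 members lie on 3 chromosomes. The mature miR-148a is at chr6:51269829-51269850 on the minus strand, inside the bounds of the gene Gm38821. miR-148b lies at chr15:103285185-103285206 on the plus strand, within Copz1, and miR-152 at chr11:96850439-96850459 on the plus strand, within Copz2. Copz1 and Copz2 encode related subunits of the COPI coat, which moves vesicles between the Golgi and the endoplasmic reticulum. The reference table used here does not say whether these positions are exonic or intronic.

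Each of the 35 arrays held 376 miRNA assays, and a value was a threshold cycle (Ct), the PCR cycle at which fluorescence crossed a set line, so that 1 cycle less stands for about a doubling of template. Ct was set against the mean Ct of 4 reference RNAs on the same array (snoRNA251, snoRNA202, snoRNA142 and U6), and levels are given as -ΔCt, a log2 scale on which higher means more RNA. The hepatocyte marker miRNAs (miR-122, miR-192 and miR-194) had mean Cts of 14.5 to 17.2, and miR-1, miR-133a, miR-124 and miR-9, which mark muscle and neurons, 28.6 to 32.3. The run dates in the files fell into 3 run periods. Period 1 held the controls labelled day 1, all of PTDs 3, 7 and 15 and 4 of the 5 mice of PTD 1, while period 2 held the fifth PTD 1 mouse (replicate 4), all of PTDs 30 and 120 and 2 of the controls labelled day 30, and period 3 held the other 2 controls. The study's methods give the 2 control days with the numbers of mice exchanged, and the deposited array of PTD 3 replicate 3 did not match the study's own table for that mouse. Nothing in the labels ties samples to litters or cages, so p-values measure the spread between mice as labelled. In the pooled controls that spread includes the gap between the 2 day labels.

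All 3 members were among the earlier-crossing assays of the array, and no member well lacked a Ct. The mean Ct over 35 arrays was 17.7 for miR-148a, the 7th lowest of 376 miRNAs. It was 18.7 for miR-148b, the 11th lowest, and 21.4 for miR-152, the 42nd lowest. Amplification efficiencies of the assays are not given in the sources used here, so these Cts are not ratios of RNA amounts. In a piece of whole liver, fewer cells of a type and less RNA per cell cannot be told apart.

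The control livers fell into separate clusters by day label for every member. For miR-148a, -ΔCt in the 7 controls had a lowest value of 2.89, a median of 4.76 and a highest of 5.10. miR-148b ranged from 2.11 through a median of 3.62 to 4.17. miR-152 ranged from -0.64 through a median of 0.98 to 1.22. The 3 controls labelled day 1 were below the 4 labelled day 30 for each member, with no overlap. Such separation was not counted over the other miRNAs, and the median log2 difference of the whole array was 1.00.

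For miR-148a, the day 1 controls had -ΔCt of 3.25, 3.56 and 2.89, and the day 30 controls 4.76, 4.98, 5.10 and 5.05. The difference, day 30 minus day 1, was 1.74 on the log2 scale (SE 0.25, n = 4 and 3, limma adjusted p = 0.00707), 3.33-fold. It was 1.46 for miR-148b (SE 0.25, limma adjusted p = 0.00777) and 1.41 for miR-152 (SE 0.24, limma adjusted p = 0.00722). The exact two-sided permutation p was 0.0286 for each member, the smallest that 35 splits allow. The members were not alone in this: 28.5% of the 376 miRNAs passed at an unadjusted p under 0.01 with a fold change above 2, all of them higher in the day 30 controls, 41% passed at an adjusted p under 0.05, and the median log2 difference of all miRNAs was 1.00. The 3 hepatocyte markers were up as well, by 1.25 to 1.66.

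The reference RNAs differed as well. Their mean Ct was 21.2 ± 0.135 (SD, n = 3) in the day 1 controls and 22.1 ± 0.265 (SD, n = 4) in the day 30 controls. When each array was instead normalized to the median Ct of its 376 miRNAs, the log2 differences of miR-148a, miR-148b and miR-152 were 0.83, 0.56 and 0.51 (limma adjusted p = 0.240, 0.346 and 0.366). With Ct taken without normalization they were 0.85, 0.58 and 0.53 (limma adjusted p = 0.197, 0.335 and 0.340). The day label and the run period cannot be told apart in the controls, since all day 1 controls were run in period 1 and none of the day 30 controls were.

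**Figure D1:**
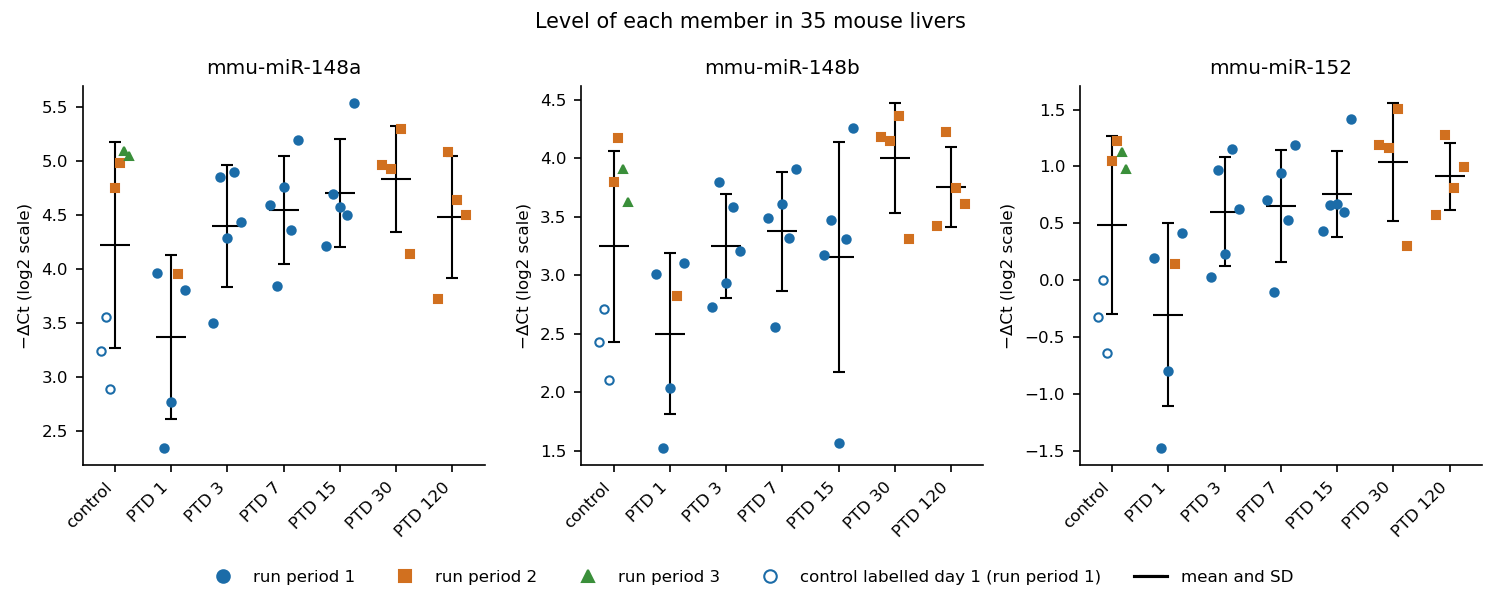
Level of each member (-ΔCt, log2 scale) in each liver, by group, with miR-148a, miR-148b and miR-152 in separate panels on separate axes. Points are mice with colour and shape giving the run period, open circles are the controls labelled day 1, and bars are the mean and SD. The controls split by day label in all 3 panels, and with the 7 controls pooled the lowest group mean is that of PTD 1 (3.37, 2.50 and -0.31), while the day 1 controls alone average 3.23, 2.41 and -0.32.

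Each PTD was compared with the pooled controls to ask whether ENU altered the members at that time. A differentially expressed miRNA (DEM) was a miRNA with an unadjusted p under 0.01 and a fold change above 2, and adjusted p-values were taken over all 376 miRNAs. None of the 18 comparisons of a member with the pooled controls gave a DEM, and none had an adjusted p under 0.05. At an unadjusted limma p under 0.05 the number was also 0, and each 95% confidence interval included 0. The spread of the pooled controls included the gap between their day labels, with SDs of 0.95, 0.82 and 0.78 for miR-148a, miR-148b and miR-152. Within the day 1 controls the SDs were 0.33, 0.30 and 0.32, and within the day 30 controls 0.15, 0.23 and 0.10. With all 7 groups in a single fit, which pools the spread over the groups, 2 of the 18 had an unadjusted limma p under 0.05, both at PTD 1, where 14.1% of the 376 miRNAs did. They were miR-148a, at a log2 fold change of -0.86 (95% CI -1.66 to -0.05, limma adjusted p = 0.325), and miR-152, at -0.79 (95% CI -1.51 to -0.07, limma adjusted p = 0.318). Neither was a DEM there.

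At PTD 1, miR-148a had -ΔCt of 3.97, 2.35, 2.77, 3.96 and 3.81 in replicates 1 to 5. miR-148b had 3.01, 1.52, 2.04, 2.82 and 3.10 in the same livers. miR-152 had 0.19, -1.48, -0.80, 0.14 and 0.42. All 5 mice were below the control mean for each member, replicates 2 and 3 were the lowest for each, and all 5 lay below every day 30 control. For each member, replicates 1, 4 and 5 were above every day 1 control and replicates 2 and 3 below every one. The log2 fold change was -0.86 for miR-148a (SE 0.50, 95% CI -1.91 to 0.20, limma adjusted p = 0.669, exact permutation p = 0.124). It was -0.75 for miR-148b (SE 0.45, exact permutation p = 0.125) and -0.79 for miR-152 (SE 0.46, exact permutation p = 0.114), both with a limma adjusted p of 0.669. Of all miRNAs 1.33% were DEMs at PTD 1 and 0% had an adjusted p under 0.05, and the median log2 fold change of the 376 was -0.37.

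At PTD 3, miR-148a had -ΔCt of 3.51, 4.86, 4.29, 4.90 and 4.43. miR-148b had 2.72, 3.80, 2.93, 3.58 and 3.20, and miR-152 0.03, 0.97, 0.23, 1.15 and 0.63. Every value lay within the range of the controls. The log2 fold changes of miR-148a, miR-148b and miR-152 were 0.17, 0.00 and 0.12, with SEs of 0.47, 0.42 and 0.41. Without replicate 3, whose deposited array did not match the study's table, they were 0.20, 0.08 and 0.21. DEMs made up 2.13% of the 376 miRNAs, 0.798% had an adjusted p under 0.05, and the median log2 fold change was 0.02.

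At PTD 7, miR-148a had -ΔCt of 4.59, 3.85, 4.76, 4.36 and 5.20. miR-148b had 3.49, 2.55, 3.61, 3.31 and 3.91, and miR-152 0.70, -0.10, 0.95, 0.53 and 1.19. Replicate 2 was lowest and replicate 5 highest for each member, and 4 of 5 mice were above the control mean. The log2 fold changes were 0.33 for miR-148a (SE 0.45), 0.13 for miR-148b (SE 0.41) and 0.17 for miR-152 (SE 0.40). At this PTD 9.84% of the miRNAs were DEMs and 7.45% had an adjusted p under 0.05, and the median log2 fold change was 0.19, so the members sat near the middle of the array.

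At PTD 15, miR-148a had -ΔCt of 4.21, 4.70, 4.57, 4.50 and 5.54. miR-148b had 3.18, 3.47, 1.57, 3.31 and 4.26. miR-152 had 0.43, 0.66, 0.67, 0.60 and 1.41. Replicate 5 was highest in -ΔCt for all 3 members. Before normalization, however, replicate 5 had the latest Ct of the group for miR-148a (18.01) and miR-152 (22.13). For miR-148b its Ct (19.29) was later than all but that of replicate 3. The mean Ct of the reference RNAs in replicate 5 was 23.5, the highest of all arrays. Replicate 3 was far below the other mice for miR-148b and in their midst for miR-148a and miR-152. The log2 fold changes were 0.48 for miR-148a (SE 0.45), -0.09 for miR-148b (SE 0.49) and 0.27 for miR-152 (SE 0.39). Without replicate 3 that of miR-148b was 0.31 (limma adjusted p = 0.649). PTD 15 had the most DEMs, 11.4% of the 376 miRNAs, with 12.2% at an adjusted p under 0.05 and a median log2 fold change of 0.36.

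At PTD 30, miR-148a had -ΔCt of 4.97, 4.93, 5.30 and 4.14. miR-148b had 4.18, 4.15, 4.36 and 3.31, and miR-152 1.19, 1.16, 1.51 and 0.30. Replicate 4 was the lowest for each member, and the other 3 mice were above the control median. The log2 fold change was 0.61 for miR-148a (SE 0.50, exact permutation p = 0.276), 0.75 for miR-148b (SE 0.45, exact permutation p = 0.133) and 0.55 for miR-152 (SE 0.44, exact permutation p = 0.230). DEMs were 1.6% of the miRNAs, 0.532% had an adjusted p under 0.05, and the median log2 fold change was 0.54, close to the members' own.

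At PTD 120, miR-148a had -ΔCt of 3.72, 5.08, 4.64 and 4.50. miR-148b had 3.42, 4.23, 3.75 and 3.61, and miR-152 0.57, 1.27, 0.81 and 1.00. Replicate 1 was lowest for each member, and all 4 mice were above the control mean for miR-148b and miR-152. The log2 fold changes were 0.26 for miR-148a (SE 0.50), 0.50 for miR-148b (SE 0.44) and 0.43 for miR-152 (SE 0.42). DEMs were 1.33% and miRNAs with an adjusted p under 0.05 0%, with a median log2 fold change of 0.46.

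Because the controls were split, each PTD was also set against the controls of 1 day label at a time. Against the 3 day 1 controls, all 3 members were DEMs at PTD 30, with log2 fold changes of 1.60, 1.59 and 1.36 for miR-148a, miR-148b and miR-152, as were 37.5% of the 376 miRNAs. At PTD 15, miR-148a (1.47) and miR-152 (1.08) were up-regulated DEMs beside 40.4% of all miRNAs, and at PTD 7 miR-148a was (1.32) beside 33%. At PTD 120 miR-148b (1.34) and miR-152 (1.23) were, beside 27.9%. Against these controls the array as a whole was also shifted, with medians over the 376 miRNAs of 0.84 (PTD 7), 1.05 (PTD 15), 1.11 (PTD 30) and 1.04 (PTD 120) on the log2 scale. Against the 4 day 30 controls no member was up-regulated at any PTD, and all 3 were down-regulated DEMs at PTD 1, by -1.60, -1.38 and -1.40 (limma adjusted p between 0.0592 and 0.0687). Of the 376 miRNAs 13% were DEMs in that comparison, with a median log2 fold change of -0.80. Only PTDs 1 and 30 had controls labelled with their own day. At PTD 1 the members were at 0.14, 0.08 and 0.01 against the day 1 controls. At PTD 30 they averaged a -ΔCt of 4.84, 4.00 and 1.04, against 4.97, 3.87 and 1.09 in the day 30 controls. The sign of each member's fold change at PTDs 1, 3, 7, 15 and 120 thus turned with the controls used, from above 0 with the day 1 controls to below 0 with the day 30 controls, as did that of miR-148a and miR-152 at PTD 30.

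Controls of the same run period gave the same DEMs as the day 1 controls at PTDs 7 and 15, since those 3 mice were the period 1 controls. At PTD 1 this also left out replicate 4, which was run in period 2. The log2 fold changes there were -0.01, 0.00 and -0.10 for miR-148a, miR-148b and miR-152. For PTD 30 the 2 controls of period 2 gave -0.03, 0.02 and -0.09, and for PTD 120 -0.38, -0.23 and -0.22. With run period as a block over all 35 arrays, miR-148a was a DEM at PTD 7 (1.17, limma adjusted p = 0.0171) and PTD 15 (1.33, limma adjusted p = 0.00713), and miR-148b and miR-152 were not at any PTD. The same block made DEMs of 30.3% of the 376 miRNAs at PTD 7 and 36.2% at PTD 15, with median log2 fold changes of 0.72 and 0.91.

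**Figure D2:**
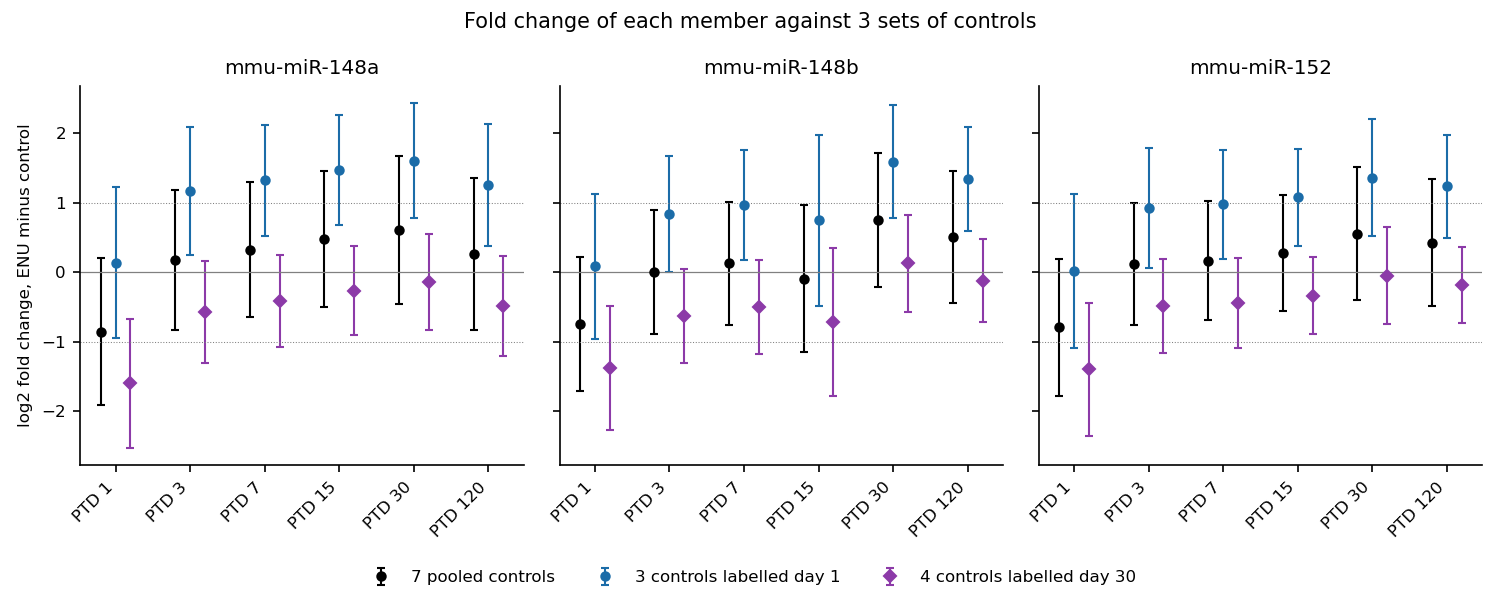
Log2 fold change (ENU minus control, -ΔCt) of each member at each PTD against the 7 pooled controls, the 3 controls labelled day 1 and the 4 labelled day 30. Points are the fitted values, error bars are 95% confidence intervals from limma, and dotted lines mark a fold change of 2. At PTD 30 miR-148a was at 1.60 with the day 1 controls and at -0.14 with the day 30 controls.

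A test over the 7 groups at once asked whether the level of a member varied with time without choosing a PTD. The F value was 2.47 for miR-148a (limma adjusted p = 0.0824), 2.26 for miR-148b (limma adjusted p = 0.104) and 2.49 for miR-152 (limma adjusted p = 0.0807). None of the members passed at an adjusted p under 0.05, while 41% of the 376 miRNAs did. With run period as a block, miR-148a (F 4.95, limma adjusted p = 0.00778) and miR-152 (F 3.49, limma adjusted p = 0.0296) passed and miR-148b did not (F 1.84, limma adjusted p = 0.196), while 42.8% of all miRNAs did. The same pair passed with the array median, along with 48.4% of the array. It also passed when only the 205 miRNAs averaging a Ct of 30 or lower were tested, 65.4% of which passed, and within run period 1, where 44.4% did. Without normalization all 3 members passed, beside 46% of all miRNAs.

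In order of group mean, miR-148a ran from PTD 1 (3.37 ± 0.76, SD, n = 5) through the controls (4.23 ± 0.95, n = 7), PTD 3 (4.40 ± 0.56), PTD 120 (4.49 ± 0.57), PTD 7 (4.55 ± 0.50) and PTD 15 (4.71 ± 0.50) to PTD 30 (4.84 ± 0.49, n = 4). For miR-152 the order was PTD 1 (-0.31 ± 0.80), the controls (0.49 ± 0.78), PTD 3 (0.60 ± 0.48), PTD 7 (0.65 ± 0.49), PTD 15 (0.76 ± 0.38), PTD 120 (0.91 ± 0.30) and PTD 30 (1.04 ± 0.52). miR-148b had PTD 15 (3.16 ± 0.98) next to PTD 1 (2.50 ± 0.69), then the controls and PTD 3 (both 3.25), PTD 7 (3.37 ± 0.51), PTD 120 (3.75 ± 0.34) and PTD 30 (4.00 ± 0.47). No neighbouring pair in these orders had an adjusted p under 0.05. The widest step was that from PTD 1 to the controls for miR-148a (0.86) and miR-152 (0.79), both with an unadjusted limma p under 0.05 (limma adjusted p = 0.325 and 0.318), and that from PTD 1 to PTD 15 for miR-148b (0.66, limma adjusted p = 0.195). These orders and steps hold with the controls pooled. The day 1 controls alone averaged 3.23, 2.41 and -0.32 for miR-148a, miR-148b and miR-152, below PTD 1 for each member by 0.14, 0.08 and 0.01. The place of PTD 15 in the order of miR-148b rested on PTD 15 replicate 3. Without that array PTD 15 was above the controls by 0.31 and above PTD 1 by 1.06 (limma adjusted p = 0.0377), in a comparison that 42.6% of all miRNAs then passed.

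ENU groups were then compared with each other. This leaves the controls out of the difference, so a change between days or run periods without ENU stays in it. Of the 45 comparisons between pairs of PTDs, 8 had an adjusted p under 0.05, all of them with PTD 1 as the lower group. miR-148a was higher than at PTD 1 at PTD 7 (log2 difference 1.18, SE 0.43, limma adjusted p = 0.0396), PTD 15 (1.33, limma adjusted p = 0.0160) and PTD 30 (1.46, limma adjusted p = 0.0241). miR-148b was higher at PTD 30 (1.50, SE 0.45, limma adjusted p = 0.0227) and PTD 120 (1.25, limma adjusted p = 0.0456). miR-152 was higher at PTD 15 (1.06, SE 0.38, limma adjusted p = 0.0265), PTD 30 (1.35, limma adjusted p = 0.0227) and PTD 120 (1.22, limma adjusted p = 0.0327). The calls at PTDs 30 and 120 set groups run wholly in period 2 against PTD 1, of which 4 of 5 mice were run in period 1. The vehicle controls labelled day 30 were likewise above those labelled day 1, by 1.74, 1.46 and 1.41 for miR-148a, miR-148b and miR-152. With run period as a block the PTD 30 differences were 0.44, 0.62 and 0.47 for miR-148a, miR-148b and miR-152 and the PTD 120 differences 0.10, 0.37 and 0.34, and none passed (limma adjusted p from 0.621 to 0.941). No miRNA passed at either PTD there (0% of 376). Under the block the members that passed were miR-148a and miR-152 for PTD 3 (20.7% of all miRNAs), all 3 for PTD 7 (44.9%) and miR-148a and miR-152 for PTD 15 (55.3%).

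Such differences from PTD 1 were widespread on the array. They held for 0.532% of the 376 miRNAs when PTD 3 was the later group. The share was 33.8% with PTD 7, 41.8% with PTD 15, 26.3% with PTD 30 and 20.5% with PTD 120. Between PTDs other than PTD 1 no member passed. There the share of all miRNAs was 0% for PTD 7 against 3, 0% for 15 against 3, 0% for 15 against 7 and 0% for 120 against 30, then 8.51% for 30 against 3, 9.57% for 120 against 3, 17.8% for 30 against 7, 18.6% for 120 against 7, 11.7% for 30 against 15 and 18.9% for 120 against 15.

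The calls also depended on the reference RNAs and on single livers. Without snoRNA202 in the reference mean none of the 8 passed. The PTD 30 differences were then 1.52, 1.56 and 1.40 (lowest limma adjusted p = 0.0610), and the share of all miRNAs that passed was 8.24% with PTD 7, 13.6% with PTD 15, 0% with PTD 30 and 1.06% with PTD 120. With the array median the PTD 30 differences were 0.69, 0.72 and 0.57 and none passed, nor did those at PTD 120 (0% and 3.72% of all miRNAs). There the members above PTD 1 were miR-148a and miR-152 for PTD 3 (16.8% of all miRNAs), all 3 for PTD 7 (45.2%) and miR-148a and miR-152 for PTD 15 (34.6%), and miR-148a was lower at PTD 120 than at PTD 7 (41.2%).

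Without normalization, chosen after the data were seen, the set of pairs that passed was another one. All 3 members were higher at PTD 30 than at PTD 1 (18.4% of all miRNAs) or PTD 15 (39.9%), and at PTD 120 than at PTD 1 (16%). miR-148b and miR-152 were higher at PTD 30 than at PTD 7 (30.6%) and at PTD 120 than at PTD 15 (36.4%), and miR-148b at PTD 30 than at PTD 3 (22.6%). None of the 3 then passed for PTD 7 or 15 against PTD 1.

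Without PTD 1 replicate 2 none of the 45 comparisons passed, and the log2 differences of PTD 30 from PTD 1 were then 1.21, 1.26 and 1.05 for miR-148a, miR-148b and miR-152 (limma adjusted p = 0.108 for each). Without PTD 1 replicate 3 none passed either, with log2 differences of 1.31, 1.39 and 1.22 (limma adjusted p = 0.0739 for miR-148a). The loss ran across the array. Without replicate 2 the share of all miRNAs past the threshold was 7.98% with PTD 7, 17% with PTD 15, 0% with PTD 30 and 0.798% with PTD 120, and without replicate 3 it was 7.18%, 26.9%, 0% and 1.33%. Other livers ended some of the calls, while over all 35 samples left out in turn the differences of the 8 calls stayed between 0.77 and 1.73. All 3 calls at PTD 30 were lost without PTD 30 replicate 1, 2 or 3, both calls at PTD 15 without PTD 15 replicate 5, that of miR-148a at PTD 7 without PTD 7 replicate 1, 3, 4 or 5, and both at PTD 120 without PTD 120 replicate 2 or 4, that of miR-148b also without replicate 3. Of 35 samples left out in turn, 14 ended the PTD 120 call of miR-148b, some of them in neither group, with the difference still at 1.25. Just outside the threshold, miR-152 at PTD 7 (0.96, limma adjusted p = 0.0504) passed in 10 of the 35. Within run period 1 alone, which leaves out PTD 1 replicate 4 and all of PTDs 30 and 120, miR-148a was higher at PTD 7 (1.33, limma adjusted p = 0.0183) and PTD 15 (1.48, limma adjusted p = 0.00863) than at PTD 1. miR-152 was too, by 1.07 (limma adjusted p = 0.0360) and 1.17 (limma adjusted p = 0.0176). Of all miRNAs 34.8% and 46% passed there.

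**Figure D3:**
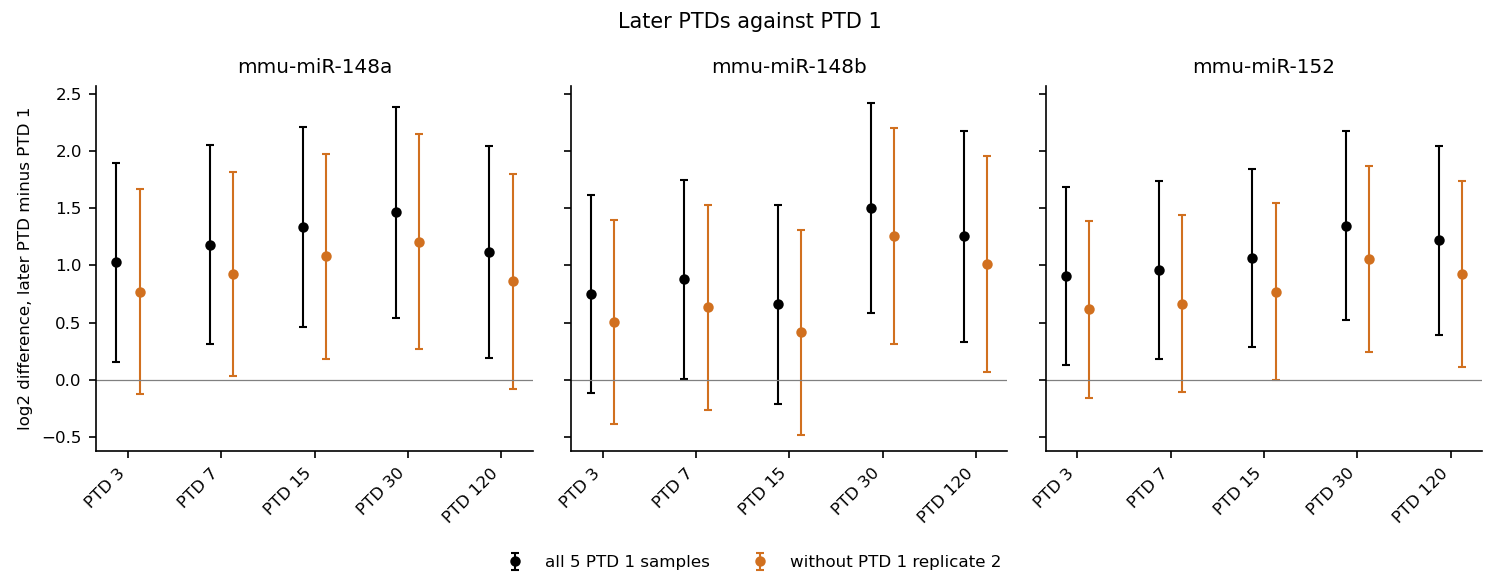
Log2 difference of each later PTD from PTD 1 for each member, with all 5 PTD 1 mice and without PTD 1 replicate 2. Points are fitted values from 1 fit of the 7 groups and bars are 95% confidence intervals from limma. All points lie above 0, and leaving out replicate 2 lowers every one, that of miR-148a at PTD 30 from 1.46 to 1.21.

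The reference RNAs moved over the same arrays. Across the 35 arrays the mean Ct of the reference RNAs ran from 21.05 to 23.5. Its correlation with -ΔCt, which contains it, was r = 0.819 for miR-148a, 0.606 for miR-148b and 0.750 for miR-152, and with the members' Ct before normalization -0.224, 0.117 and 0.0418. The SD over the 35 arrays was 0.446 cycles for the Ct of miR-148a and 0.757 for its -ΔCt. For miR-148b the 2 SDs were 0.595 and 0.743, and for miR-152 0.443 and 0.669. The normalized levels were thus more spread than the raw Cts for each member. Calls against PTD 1 were lost without PTD 1 replicate 2 or 3, or PTD 15 replicate 5. The reference means of these arrays were 21.05, 21.16 and 23.5.

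**Figure D4:**
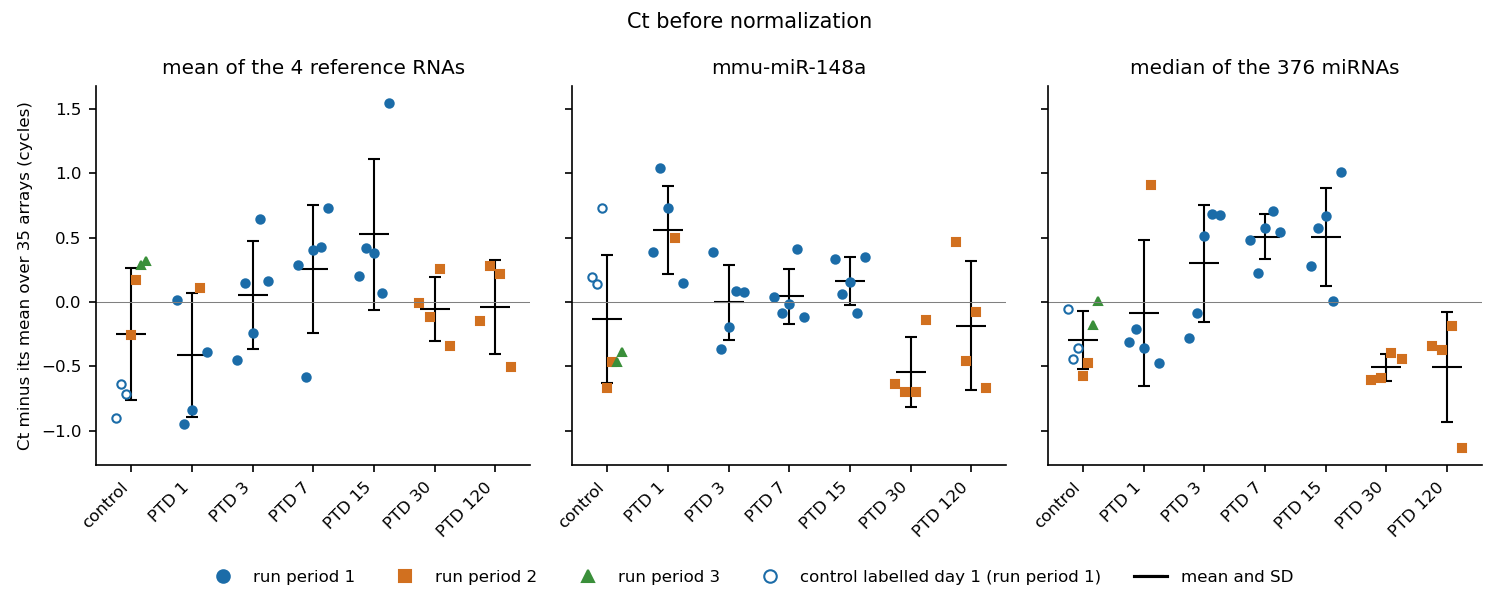
Ct before normalization, given as cycles above or below its mean over 35 arrays, for the mean of the 4 reference RNAs, for miR-148a and for the median of the 376 miRNAs. Points are mice with colour and shape giving the run period, open circles are the controls labelled day 1, and bars are the mean and SD. The reference RNAs had mean Cts of 21.2 in the day 1 controls, 21.6 at PTD 1 and 22.5 at PTD 15.

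Differences between members within an array do not depend on the reference RNAs, and they asked whether the members moved apart after ENU. In the controls -ΔCt of miR-148a exceeded that of miR-148b by 0.98 ± 0.24 (SD, n = 7) and that of miR-152 by 3.74 ± 0.21, and miR-148b exceeded miR-152 by 2.76 ± 0.09. miR-148a crossed threshold before miR-148b, and miR-148b before miR-152, on all 35 arrays. None of the 18 changes in such a difference at a PTD had an adjusted p under 0.05. Relative to miR-148a, the share of the other 375 miRNAs that passed was 0.267% at PTD 1. It was 8.53% for PTD 7, 6.13% for PTD 15 and 0% for the remaining PTDs. Relative to miR-148b it was 9.87% at PTD 7 and 5.6% at PTD 15, with 0% elsewhere.

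At PTD 15 the gap between miR-148a and miR-148b was wider by 0.57 (SE 0.33, limma adjusted p = 0.313, exact permutation p = 0.0328). Of the other miRNAs with a value on every array compared, 21.1% of 369 had an unadjusted exact p under 0.05 relative to miR-148a at that PTD. It ran from 1.04 to 3.01 against 0.79 to 1.43 in the controls, and without PTD 15 replicate 3 the widening was 0.21. With run period as a block it was 0.77 (limma adjusted p = 0.0208), and that between miR-148a and miR-152 was 0.39 (limma adjusted p = 0.0449), and 34.9% of the miRNAs passed relative to miR-148a. Against only the 3 period 1 controls these gaps were 0.73 and 0.39, neither past the threshold (limma adjusted p = 0.293 and 0.174). At PTD 30 the gap between miR-148b and miR-152 was wider by 0.20 (SE 0.17, limma adjusted p = 0.800, exact permutation p = 0.00606), from 2.85 to 3.01 against 2.65 to 2.95. Relative to miR-148b 6.7% of 373 miRNAs passed the exact test there. The groups overlapped in both cases.

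On the array of PTD 15 replicate 3, miR-148b stood apart from the other members. Its Ct was 20.8 for miR-148b against 18.8 to 19.3 in the other 4 mice, 1.83 cycles later than their median. On that array let-7g, a let-7 miRNA that represses growth genes such as Ras and Hmga2, was 2.08 cycles late, miR-10b, encoded in a Hox gene cluster, 1.62 and miR-190b 2.23. miR-148a and miR-152 on the same array lay at -0.04 and -0.06 cycles from the median of the other 4 mice.

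The within-array gaps also moved with a technical reading. Each array has 2 control wells for the reverse transcription step, and over the 35 arrays the difference in Ct between them correlated with the gap of miR-148a over miR-148b (r = 0.635), of miR-148a over miR-152 (r = 0.603) and of miR-148b over miR-152 (r = -0.403). The points share their array. With that difference as a covariate, added after the data were seen, none of the 18 gaps had an adjusted p under 0.05. The widening of miR-148a over miR-148b at PTD 15 was then 0.37 in place of 0.57, and at PTD 7 0.06 in place of 0.20. That of miR-148b over miR-152 at PTD 30 was 0.19 in place of 0.20.

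**Figure D5:**
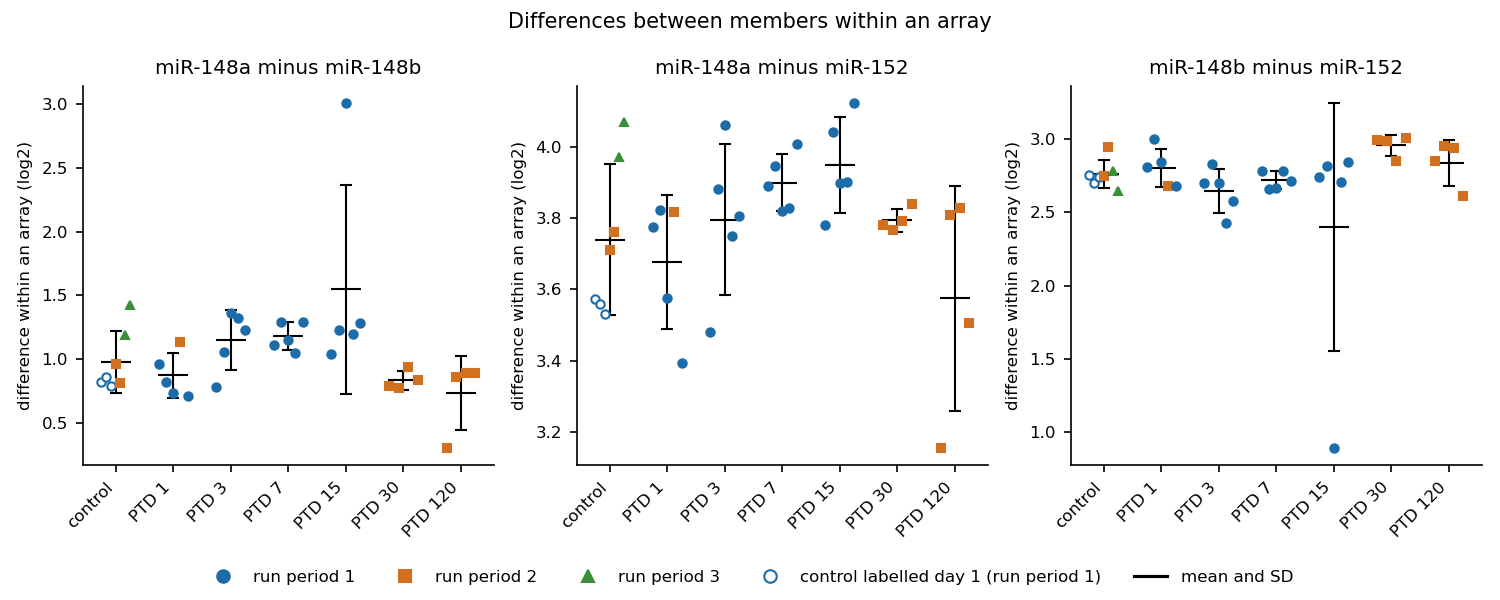
Difference in -ΔCt between 2 members on the same array, by group, for miR-148a minus miR-148b, miR-148a minus miR-152 and miR-148b minus miR-152. Points are mice with colour and shape giving the run period, open circles are the controls labelled day 1, and bars are the mean and SD. PTD 15 replicate 3 stands apart at 3.01 in the left panel and 0.89 in the right one.

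Across the 35 arrays the -ΔCt of miR-148a and miR-152 moved together (r = 0.966), more closely than either did with miR-148b (r = 0.847 with miR-148a and 0.886 with miR-152). Before normalization the correlations of Ct were 0.892, 0.717 and 0.818. These are descriptions over arrays that share the same reference mean and the same RNA input step. The 3 miRNAs most like miR-148a were miR-126-3p (r = 0.966), which marks endothelium, miR-152, and miR-16 (r = 0.962), which represses cell-cycle and survival genes. miR-152 was most like miR-140 (r = 0.980), miR-126-3p (r = 0.977) and the hepatocyte miRNA miR-194 (r = 0.976). For miR-148b they were let-7g (r = 0.951), miR-10b (r = 0.948) and miR-190b (r = 0.909), the miRNAs that were also late on PTD 15 replicate 3, an array that entered these correlations. The median r over all miRNAs was 0.536, 0.467 and 0.517 for miR-148a, miR-148b and miR-152, and miR-148b stood 55th among the miRNAs most like miR-148a. The leading names shifted with the values used. Centred on group means, miR-152 was most like miR-192, miR-140 and miR-16, with 1 of 3 shared, and with the array median miR-192 took the place of miR-194. Of the 6 such lists, 4 differed from the first ones by at least 1 name.

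Other miRNAs known to act on DNA methyltransferases were read beside the family. The list held miR-29a, miR-29b and miR-29c, which repress Dnmt3a and Dnmt3b, miR-185, miR-342-3p and miR-126-3p, which have been described as repressors of Dnmt1, and miR-101a and miR-101b, which repress the histone methyltransferase Ezh2 and Dnmt3a. All 8 were measured, and 0 of 8 were DEMs at every PTD, where 1.33% to 11.4% of all miRNAs were. The only one with an adjusted p under 0.05 was miR-185 at PTD 15 (log2 fold change 0.99, SE 0.23, limma adjusted p = 0.0168), beside 12.2% of the array. Counts of 0 or 1 of 8 are near these shares. The median log2 fold change of the 8 was -0.50, 0.48, 0.33, 0.56, 0.69 and 0.55 from the first PTD to the last. Beside it the median of all 376 was -0.37, 0.02, 0.19, 0.36, 0.54 and 0.46.

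Markers of the cell types a liver piece can hold were followed because they could move with the family. The 3 hepatocyte markers had no DEM at any PTD, with a median log2 fold change of -0.68 at PTD 1 and 0.64 at PTD 30, and their summed level ran from 6.40 to 7.91 at PTD 1 against 7.04 to 8.70 in the controls on the log2 scale. At PTD 15 these markers split, with miR-122 at -0.58 (SE 0.76), miR-192 at 0.48 and miR-194 at 0.20. Their summed level ran from 5.945 to 9.032 there. The 2 endothelial markers, miR-126-3p and miR-126-5p, had no DEM either, with medians of -0.77 at PTD 1 and 0.59 at PTD 30, and the 3 stromal markers had none. Of 5 leukocyte markers, miR-150, made in mature lymphocytes, was down-regulated at PTD 1 (-1.72, SE 0.36, limma adjusted p = 0.108) and miR-142-3p, made throughout blood cells, was up-regulated at PTD 120 (1.35, SE 0.43, limma adjusted p = 0.446). The 2 erythroid markers, miR-144 (1.52, SE 0.35, limma adjusted p = 0.0162) and miR-451 (1.04, SE 0.34, limma adjusted p = 0.0635), were DEMs at PTD 15. On the log2 scale the summed leukocyte level ran from -1.63 to 0.52 at PTD 1 against -0.37 to 1.30 in the controls. The part of these cell types in the members' levels was not tested.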

How the data were processed

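Ct values of 35 arrays of 384 wells were used as the authors deposited them, as raw threshold cycles from SYBR Green real-time PCR of enriched small RNA, not normalized. Wells were named through the layout in the study's supplementary table. ΔCt was computed from each array's 4 reference RNAs, and 15 wells with no Ct on 11 arrays were left out of the fits. limma 3.58.1 in R 4.3.3 was run on -ΔCt of all 376 miRNAs, with 1 fit for each PTD against 7 pooled controls and 1 fit of the 7 groups for the F test and the comparisons of PTDs, and Benjamini-Hochberg adjustment over all miRNAs. Exact permutation tests were two-sided and went through every split of the samples. Both tests were checked on simulated data, the exact one against scipy 1.17.1. Run periods were split at gaps of more than 14 days between run dates. Array number limits the precision, and there are no read counts. The named miRNAs were the members, the reference RNAs, for each member the 3 most correlated miRNAs, the DNA methyltransferase list and the cell type markers. The members and lists were chosen with earlier results of these data known. Normalization, the low-value filter, missing wells, the controls used, run period, the methods' t-test, covariates and each sample in turn were varied.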

Additional observations from a re-analysis of the deposited data

Results flagged for a closer look

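Of 42 sets of 4 or 5 samples examined for a value far from the rest, 5 had one, where chance gives about 1 in 20. miR-152 was at a -ΔCt of 1.41 in PTD 15 replicate 5, with the nearest of the other mice at 0.67. Before normalization the Ct of miR-152 in that liver was 22.13, the latest of the PTD 15 mice, against 21.47 to 21.77 in the others. The mean Ct of the reference RNAs on that array was 23.5, the highest of all arrays. miR-148a exceeded miR-148b by 3.01 on the array of PTD 15 replicate 3 and by only 0.30 on that of PTD 120 replicate 1, where the nearest other mice were at 1.28 and 0.86. miR-148b exceeded miR-152 by 0.89 in PTD 15 replicate 3 (nearest 2.71) and by 2.85 in PTD 30 replicate 3 (nearest 2.99).

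Between PTDs the test of the difference itself passed for miR-148a at PTDs 7, 15 and 30 against PTD 1 (1.18, 1.33 and 1.46 on the log2 scale), for miR-148b at PTDs 30 and 120 (1.50 and 1.25) and for miR-152 at PTDs 15, 30 and 120 (1.06, 1.35 and 1.22). Of all 376 miRNAs 33.8%, 41.8%, 26.3% and 20.5% passed at PTDs 7, 15, 30 and 120 against PTD 1. The controls labelled day 30 were above those labelled day 1 by 1.74, 1.46 and 1.41 for miR-148a, miR-148b and miR-152. Without snoRNA202 among the reference RNAs none of the members' differences between PTDs passed, with PTD 30 differences of like size (1.52, 1.56 and 1.40 for miR-148a, miR-148b and miR-152). With run period as a block those at PTDs 30 and 120 did not pass and were smaller (0.44, 0.62 and 0.47 at PTD 30). None of these passed without PTD 1 replicate 2, nor without PTD 1 replicate 3, with differences at PTD 30 of 1.21, 1.26 and 1.05 and of 1.31, 1.39 and 1.22 for miR-148a, miR-148b and miR-152. Of all 376 miRNAs the number that passed for PTD 30 against PTD 1 went from 99 to 0 in both cases.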

How the results depend on the processing

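Against the day 1 controls the number of members that were DEMs was 1, 2, 3 and 2 at PTDs 7, 15, 30 and 120, with log2 fold changes of 1.32 for miR-148a at PTD 7, 1.47 for miR-148a and 1.08 for miR-152 at PTD 15, 1.60, 1.59 and 1.36 for miR-148a, miR-148b and miR-152 at PTD 30, and 1.34 for miR-148b and 1.23 for miR-152 at PTD 120. Of all 376 miRNAs 33%, 40.4%, 37.5% and 27.9% were DEMs in these comparisons. Same-period controls gave the same 1 and 2 DEMs at PTDs 7 and 15. Against the day 30 controls 3 members were DEMs at PTD 1 (-1.60, -1.38 and -1.40), beside 13% of all miRNAs. Run period as a block gave 1 DEM at PTD 7 and 1 at PTD 15, miR-148a (1.17 and 1.33), beside 30.3% and 36.2% of all miRNAs. It also gave within-array gaps at PTD 15 of 0.77 (miR-148a over miR-148b) and 0.39 (miR-148a over miR-152), where 34.9% passed relative to miR-148a. By the exact permutation test the gaps of 0.57 (miR-148a over miR-148b, PTD 15) and 0.20 (miR-148b over miR-152, PTD 30) passed, beside 21.1% and 6.7% of the miRNAs tested. The cause was not tested. No other setting gave a member DEM, and 47 of 342 fold changes, none of them called, had another sign. Leaving out each sample in turn gave 0 member DEMs in 210 fold changes.

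The F value passed for miR-148a and miR-152 with the array median (3.71 and 3.13, beside 182 of 376 miRNAs), for a Ct averaging 30 or lower (2.66 and 2.64, 134 of 205 miRNAs), with the run period block (4.95 and 3.49, 161 of 376) and, chosen after seeing the data, within run period 1 (6.37 and 4.14, 167 of 376). Without normalization, also chosen after seeing the data, it passed for all 3 members (3.55, 5.50 and 4.73, 173 of 376). Leaving out a sample gave F values of 1.55 to 2.76, 1.61 to 2.85 and 1.51 to 2.88 for miR-148a, miR-148b and miR-152, none past the threshold.

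Of 15 pairs of PTDs, 3, 2 and 3 differed for miR-148a, miR-148b and miR-152. Without snoRNA202 it was 0 for each. For miR-148b it was 1 with the array median and 1 with the run period block. Without normalization it was 6 for miR-148b and 5 for miR-152, in comparisons that 60 to 150 of the 376 miRNAs passed. Of 6 lists of the most similar miRNAs, 4 changed. Leaving out a sample gave 0 to 4, 0 to 3 and 0 to 4, with 0 for each member without PTD 1 replicate 2 or 3. The day 30 minus day 1 difference of the controls no longer passed with the array median (0.83, 0.56 and 0.51) or without normalization (0.85, 0.58 and 0.53).

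The replicate numbers share only a number: in 1 of 12 comparisons did every pair of same-numbered samples correlate above 0.1. With the replicate block 0 members were DEMs at each PTD, as without it, and miR-148a at PTD 1 was at -1.07.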
